A study of Mus musculus with 4 samples.

Results

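The comparison set the kidney of FVB/N control mice against the kidney of C57BL/6 control mice, gene by gene, on Illumina mouse bead arrays. Each gene was read by its brightest probe over the 4 libraries of the series, and a gene was kept when the mean of that probe reached 5.49 on the log2 intensity scale, the median of all probes. This left 9201 of 15967 measured genes. A library here is 1 column of array values for a group of mice. The FVB/N control and the C57BL/6 control library are compared throughout, and the FVB/N diabetic and C57BL/6 diabetic libraries, which share no column with them, serve as a second pair of the same strains. All mice were 8 weeks old and of mixed sex, with 6 kidneys given per group. Controls had received saline and are labelled as controls for 21 days; the diabetic mice are labelled as diabetic for 21 days, by a means the labels do not state. No transgene or induced mutation is named for any group. The labels do not say whether a column stands for pooled kidneys or for 1 animal, nor which substrain of C57BL/6 was used. Since each group has 1 library, no replicate spread exists, differences are described without a test, and each compares 2 libraries rather than 2 strains.

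Inbred strains carry fixed, different alleles throughout the genome. C57BL/6 is the strain of the mouse reference genome and carries the H2 b haplotype of the major histocompatibility complex (MHC). FVB/N, favoured for transgenic work because of its large pronuclei, carries the H2 q haplotype. A bead-array probe is a short oligonucleotide that reads a single stretch of a transcript. A difference in transcript level and a difference in how a probe binds the sequence of a strain cannot be told apart from 1 probe.

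Both control libraries carried the transcripts of a kidney. Slc34a1, the proximal tubule phosphate transporter, stood at 14.91 in FVB/N and 14.97 in C57BL/6, Umod of the loop of Henle at 12.52 and 12.64, and Slc12a1, the salt transporter of the same segment, at 13.06 and 12.89. Of the podocyte markers, Nphs1 (nephrin) read 5.40 and 5.71 and Podxl (podocalyxin) 11.44 and 11.84. The brown fat gene Ucp1 was bright in both controls, at 10.20 in FVB/N and 10.87 in C57BL/6. In the diabetic libraries it was at 4.93 in FVB/N and 9.36 in C57BL/6. Over 12 expressed genes of brown and white fat the median strain difference was 0.32 between controls and 0.13 between diabetics. The part of fat tissue in the differences below, in either pair, was not tested. Of the genes of the Y chromosome, 6 were measured and 1, Zfy2, reached the expression minimum, at 5.80 and 5.84, and Xist had no named probe. The balance of male and female animals could therefore not be read from these genes, and the part of sex in the differences below was not tested. In whole kidney, fewer cells of a type and less RNA per cell cannot be told apart.

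Most kidney genes had close values in the control libraries of the strains. Of the 9201 genes, 8001 (87.0%) lay within 1.5-fold of each other, the median difference was 0.01 log2 and the standard deviation across genes 0.49 log2. Between the diabetic libraries the standard deviation was 0.68, between diabetic and control C57BL/6 0.39, and between diabetic and control FVB/N 0.55. At a threshold of 2-fold, 144 genes (1.57%) were higher in the FVB/N control library and 239 (2.60%) were lower. The tail was longer on the lower side. At least 3 log2 units apart, which is 8-fold, were 6 genes higher and 22 lower in FVB/N, and in the diabetic pair 9 and 31. In the dimmer of the 2 libraries, 49 of the 144 higher and 79 of the 239 lower genes were below 5.49, so the size of those differences is uncertain.

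The same strain difference in the diabetic libraries was similar for the genes furthest apart. Of the 144 genes higher in the FVB/N control, 118 (81.9%) were also above C57BL/6 in the diabetic pair, where 44.5% of all genes were above, and 56 (38.9%) were at least 2-fold above, where 5.58% of all genes were. Of the 239 lower genes, 207 (86.6%) were below in the diabetic pair, where 55.5% of all genes were below, and 146 (61.1%) were at least 2-fold below, where 4.92% were. The shared genes made up 10.9% of the 513 genes 2-fold higher and 32.2% of the 453 genes 2-fold lower in the diabetic pair. Of the genes at least 3 log2 apart between controls, all 6 higher and all 22 lower were at least 2-fold apart the same way between diabetics. In the dimmer control library, 3 of the 6 and 10 of the 22 were below 5.49. Such genes passed the minimum through their brighter libraries. The mean used there also holds the diabetic values, so the filter and this repeat are not independent. Across all 9201 genes the differences of the pairs had a Pearson correlation of 0.43 and a Spearman correlation of 0.20. The genes are not independent, and the arrays of a strain may share more than the strain.

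**Figure D1:**
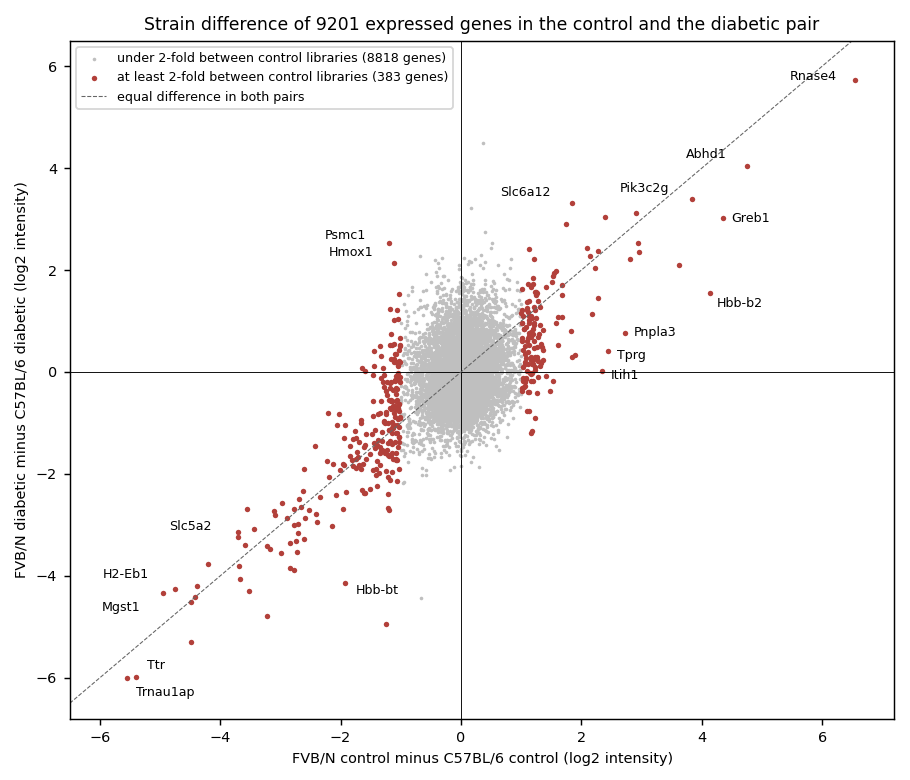
Strain difference of each of 9201 genes between the control libraries (horizontal axis, log2) against the difference between the diabetic libraries (vertical axis, log2), with 383 genes at least 2-fold apart between controls in red and the line of equal difference dashed. Trnau1ap at -5.55, Ttr, Abhd1 and Rnase4 at 6.54 lie far out in both pairs; Hbb-b2, Serpina3b and Greb1 lie below the line, Itih1, Tprg and Pnpla3 lie nearer 0 on the vertical axis, and Psmc1 and Hmox1 have opposite signs.

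The gene furthest above C57BL/6 was Rnase4, a secreted ribonuclease of the RNase A family. It stood at 11.42 in the FVB/N control and 4.88 in the C57BL/6 control, and at 11.01 and 5.27 in the diabetic libraries, a difference of 6.54 between controls and 5.73 between diabetics. Both C57BL/6 libraries were at the bottom of the range and both FVB/N libraries high. A second Rnase4 probe gave 4.44 and 4.72. Abhd1, of the alpha/beta hydrolase family, followed at 12.53 against 7.78, and at 11.82 against 7.77 in the diabetic pair. Its second probe was 3.05 and 3.01 higher in FVB/N, so for both genes a second probe gave the same direction in both pairs. Whether the probes of a gene read separate stretches of its transcript was not tested.

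Greb1, first known as an oestrogen-induced gene, was at 9.52 in the FVB/N and 5.18 in the C57BL/6 control, and at 8.00 and 4.99 in the diabetic libraries. Its other probe was below the expression minimum. Pik3c2g, a class II phosphoinositide kinase subunit, was at 10.16 and 6.32 in the controls and 10.03 and 6.63 in the diabetics. Hsd3b2, a hydroxysteroid dehydrogenase of steroid hormone metabolism, was at 10.25 and 7.86, then at 10.61 and 7.56. Its second probe read 2.45 between controls and 2.80 between diabetics, close to the 2.38 and 3.05 of the first. Hsd3b genes are a family of close copies, so a probe may read more than 1 of them.

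Of the other genes high in the FVB/N control, the serpin Serpina3b stood 3.63 above C57BL/6, the phospholipid flippase Atp10d 2.96, the mitochondrial dehydrogenase D2hgdh 2.94 and the lysophospholipase Gdpd3 2.90. The meiotic recombination factor Psmc3ip was 2.81 above and the transcription factor Cebpd 2.28. In the diabetic pair these were 2.10, 2.36, 2.52, 3.12, 2.22 and 2.38 above. Cebpd showed this difference on 1 probe only. Its second probe read 0.19 between controls and -0.57 between diabetics.

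The gene furthest below C57BL/6 was Trnau1ap, which serves the incorporation of selenocysteine into proteins. It stood at 4.97 in the FVB/N control against 10.52, and at 4.78 against 10.78 in the diabetic pair. Ttr, the carrier of thyroxine and of retinol-binding protein, was at 6.13 against 11.53, then at 6.15 against 12.13. Mgst1, the microsomal glutathione transferase, was at 6.22 against 11.17, then at 6.67 against 11.02. In these 3 genes the C57BL/6 libraries were bright and the FVB/N libraries near or under the expression minimum, with no overlap.

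Further genes at least 3 log2 lower in the FVB/N control were Pttg1, the securin of sister chromatid separation, at -4.49, the protease inhibitor Spink8 at -4.38, the RNA-binding protein Rbm14 at -4.20 and the lysosomal acid lipase Lipa at -3.70. Fcer1g, the shared signalling chain of Fc receptors, was at -3.70, Cbwd1 at -3.60 and the LIM protein Csrp1 at -3.56. In the diabetic pair they stood at -5.29, -4.20, -3.77, -3.13, -3.80, -3.39 and -2.70. Lipa remained bright in FVB/N, at 8.71 against 12.41. Fcer1g was at 4.86 against 8.56, below the minimum in FVB/N. Over 12 expressed markers of macrophages and dendritic cells the median was -0.10 between controls, 2 of them higher by 1.5-fold or more and 0 lower. Between diabetics it was -0.57, with 1 higher and 6 lower, and the part of these cells in the Fcer1g difference was not tested.

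**Figure D2:**
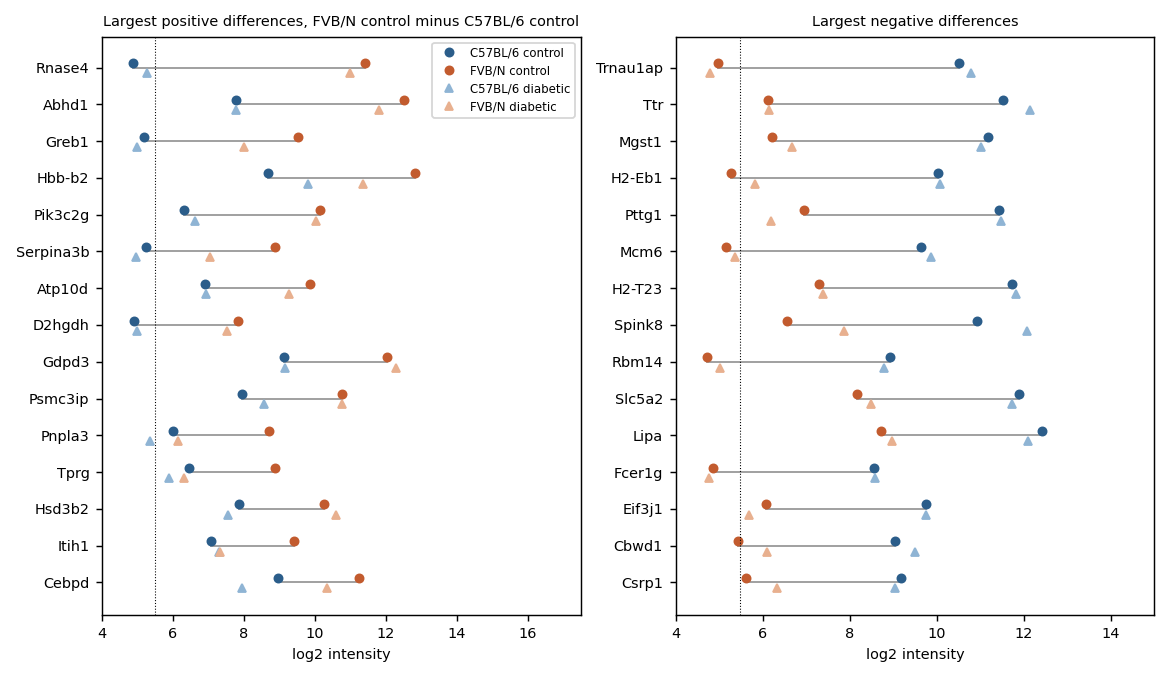
Log2 intensity in each of the 4 libraries (circles for controls, triangles for diabetics) for the 15 genes with the largest positive and the 15 with the largest negative difference between the control libraries. Grey lines join the controls and the dotted line marks the expression minimum of 5.49; for most genes the diabetic triangles lie near the control circle of their strain, with Greb1, Hbb-b2, Serpina3b, Pnpla3, Tprg and Itih1 among the exceptions.

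Where a gene had a second probe, it often did not repeat the difference. There were 1372 genes with 2 probes at or above the minimum. Across these the differences of the probes correlated at 0.35 (Pearson) and 0.21 (Spearman). The standard deviation of the gap between the probes, divided by the square root of 2 to refer to a single probe, was 0.39 log2. The brightest probe was at least 2-fold higher in FVB/N for 12 of these genes, and the second probe was at least 2-fold higher for 3 of them, Rnase4, Abhd1 and Hsd3b2, and had the opposite sign for 4. On the lower side the brightest probe was at least 2-fold lower for 25 genes, the second probe at least 2-fold lower for 5, Prdx2, Apoa2, Serpina1a, Serpina1b and Aph1b, and of opposite sign for 8. These genes were named after their values were seen.

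Slc5a2, which encodes the glucose transporter SGLT2 of the early proximal tubule, is a clear case. Its brightest probe stood at 8.18 in the FVB/N and 11.89 in the C57BL/6 control, a difference of -3.71, and its second at 7.39 and 7.10, a difference of 0.29. In the diabetic pair the probes read -3.24 and 1.82. The direction of the strain difference in Slc5a2 thus depended on the probe. Mcm6, a subunit of the replicative helicase, read -4.49 by its brightest probe and -0.42 by the second. Eif3j1, a translation initiation factor subunit, read -3.67 and 0.74.

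**Figure D3:**
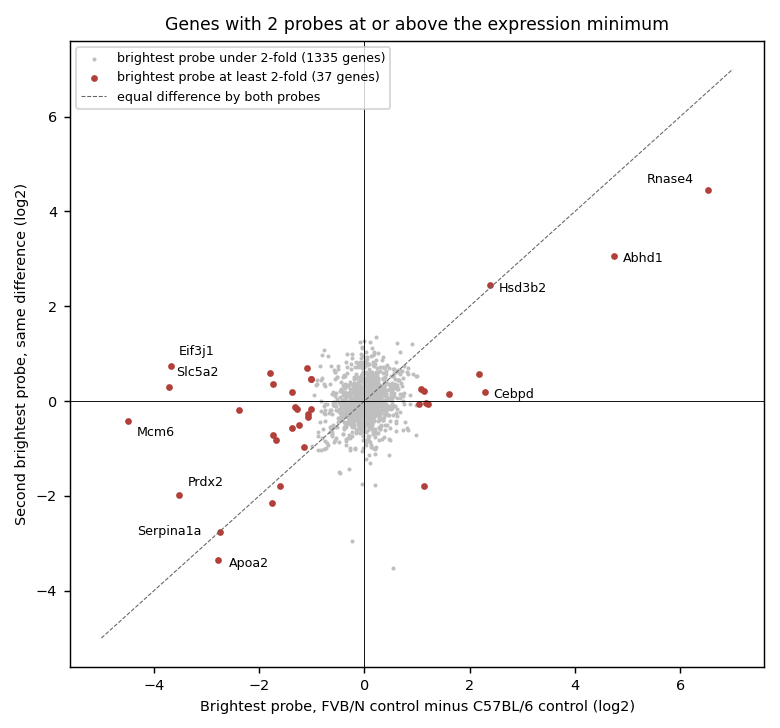
Difference between the control libraries by the brightest probe (horizontal axis, log2) and by the second brightest probe (vertical axis, log2) of 1372 genes, with 37 genes at least 2-fold apart by the brightest probe in red. Hsd3b2, Apoa2 and Serpina1a lie near the dashed line of equal difference; Rnase4, Abhd1 and Prdx2 have the same sign by both probes but a smaller difference by the second; and Mcm6, Slc5a2, Eif3j1 and Cebpd lie near 0 on the vertical axis or on the other side of it.

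A strain difference that covered a whole pathway or cell type was rare. Of 56 lists of related genes, 52 had at least 5 expressed members, and 45 of these had a median within 0.25 log2 of 0, beside 0.01 for all genes. Of all genes, 6.29% were higher in the FVB/N control by 1.5-fold or more and 6.75% were lower by that much. In the diabetic pair 14.7% were higher and 16.9% lower by 1.5-fold or more. Of the medians, 2 lay beyond 1.5-fold, liver-type plasma protein transcripts at -1.05 and red blood cell transcripts at 0.76. The red blood cell list has 5 expressed members. Its median was 0.31 without an expression minimum, 0.54 with the minimum at percentile 75 of all probes, and -0.17 between diabetics.

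**Figure D4:**
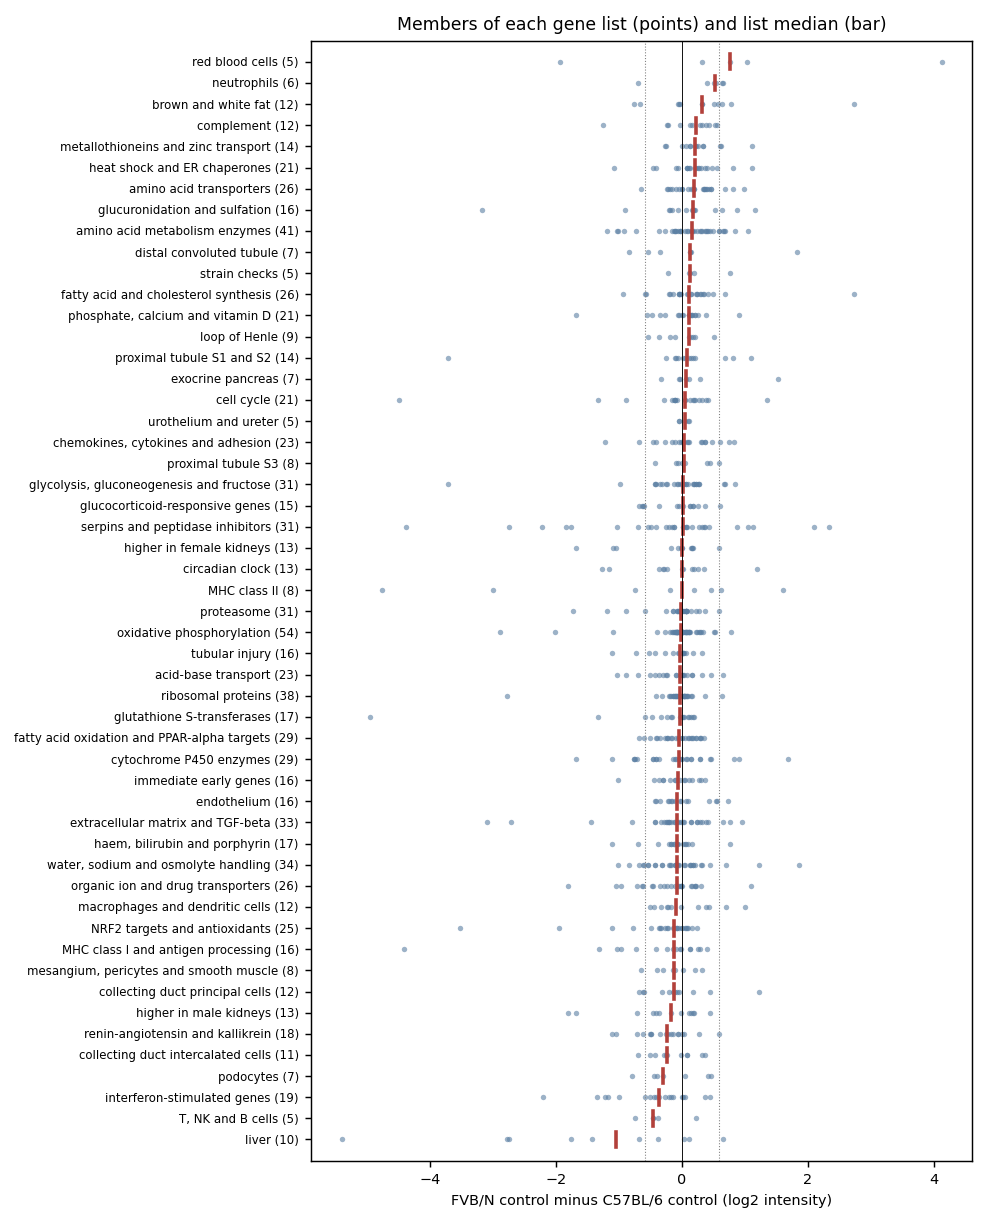
FVB/N control minus C57BL/6 control (log2) for every expressed member of 52 gene lists, ordered by median, with the number of expressed members in brackets, the median as a red bar and dotted lines at 1.5-fold. Most medians lie close to 0 while single members of many lists lie several log2 units away.

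Transcripts best known from liver, which encode plasma proteins, were lower in FVB/N kidney. Of 10 expressed members, 6 were at least 1.5-fold lower and 1 higher between controls, beside 6.75% and 6.29% of all genes. Of the 6, 5 were also lower by 1.5-fold or more in the diabetic pair, where 16.9% of all genes were. The median of the list there was -1.07. Among all genes 2-fold lower between controls, 61.1% were 2-fold lower between diabetics too. The like share at 1.5-fold was not counted, so whether this list repeated more often than other lower genes was not tested. Apoa2, an apolipoprotein of high-density lipoprotein, stood at 5.80 in the FVB/N and 8.58 in the C57BL/6 control, and at 6.38 and 9.06 in the diabetic libraries. Its probes both read lower, at -2.78 and -3.35. Apoc3, an inhibitor of lipoprotein lipase, was at -1.42 between controls and -1.48 between diabetics. Ttr, described above, is on this list too. Not every member was lower: Fga, the alpha chain of fibrinogen, was 0.65 higher between controls and 1.26 higher between diabetics, and Apoa1 was at 0.04, both chosen after their values were seen. The median of the list rests on few genes. For the liver list the median was -0.68 with the expression minimum set on the control libraries alone, and -0.0039 without a minimum.

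Of the alpha-1-antitrypsin genes, peptidase inhibitors of plasma, 3 were lower, and Serpina1a and Serpina1b belong to the liver list too. Serpina1a stood at -2.75, Serpina1d at -2.23 and Serpina1b at -1.76 between controls, and at -3.33, -1.74 and -1.15 between diabetics. Serpina3n, of the antichymotrypsin group, lay the other way, at 7.39 against 5.30 and at 8.58 against 6.14. Among the 31 expressed members of the peptidase inhibitor list 5 were at least 1.5-fold higher and 7 lower, and the median was 0.01. Serpina3b, at 3.63, is not on that list. The epithelial protease inhibitor Spint1 was at -1.85 and -1.45. Serpina1 and Serpina3 genes are clusters of close copies, so the split among members is uncertain.

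MHC genes differed by member and in both directions. H2-Eb1, the beta chain of the class II E molecule, was at 5.27 in the FVB/N control and 10.02 in the C57BL/6 control, and at 5.83 and 10.08 in the diabetics. H2-Aa, the alpha chain of the A molecule, was at 8.87 against 11.86, then 8.59 against 12.14. Both FVB/N libraries lay below both C57BL/6 libraries for both genes. H2-Ab1, the beta chain that pairs with H2-Aa, was at -0.75 between controls and -0.12 between diabetics. Cd74, the invariant chain made by the same antigen-presenting cells, stood at 10.07 and 10.26, and this gene was chosen after its values were seen.

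H2-DMb1, which helps to load class II molecules with peptide, was 1.61 higher in the FVB/N control and 1.08 higher in the FVB/N diabetic library, but its second probe read 0.15 between controls. Among class I genes H2-T23, which encodes the Qa-1 molecule seen by natural killer receptors, was at 7.30 against 11.72 and at 7.39 against 11.81. H2-T22 was at -1.32 and H2-T10 at -1.03, then at -1.53 and -1.37 in the diabetic pair. The second probe of H2-T22 did not repeat this, at -0.12 between controls and 0.03 between diabetics. Of 16 expressed class I and antigen processing genes 5 were at least 1.5-fold lower and 0 higher, beside 6.75% and 6.29% of all genes. Of the 5, 4 were that much lower between diabetics too, beside 16.9% of all genes. Among all genes 2-fold lower between controls, 61.1% were 2-fold lower between diabetics too. The like share at 1.5-fold was not counted, so whether these genes repeated more often than other lower genes was not tested. The classical class I gene H2-K1 stood at 11.31 against 11.40 and the shared light chain B2m at 12.94 against 12.65, both chosen after their values were seen. Class I genes are close copies, so probes may read several.

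**Figure D5:**
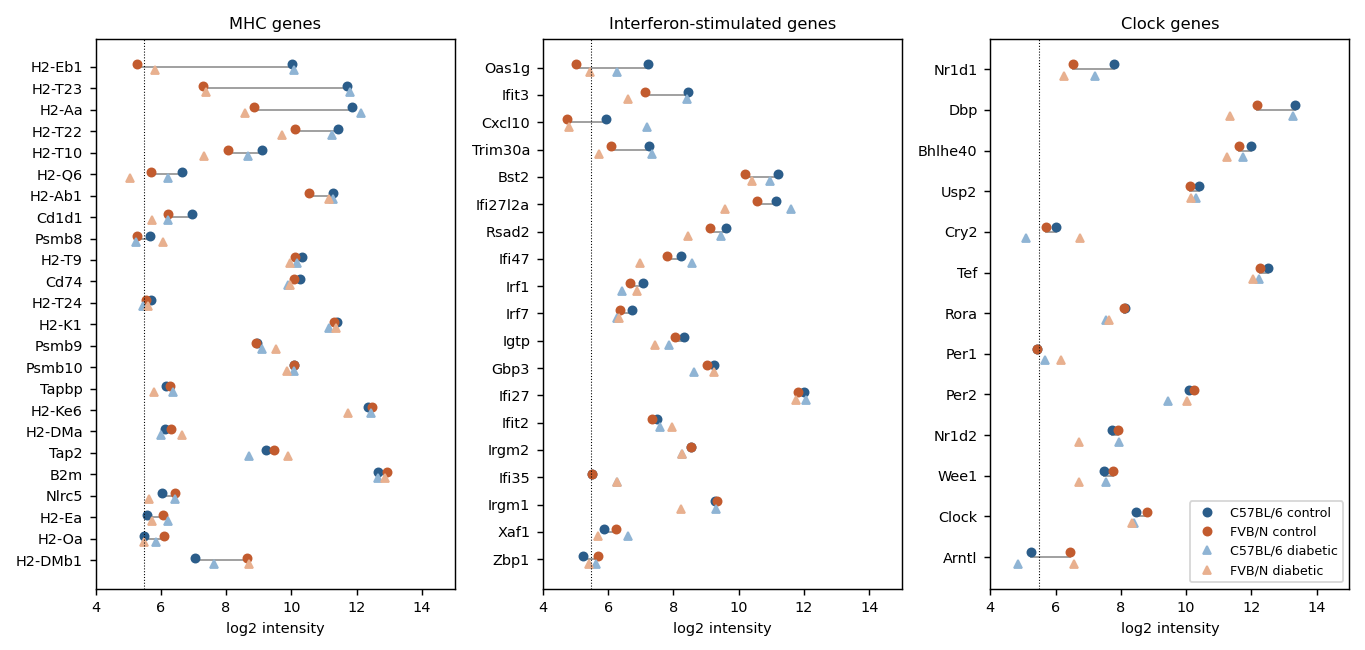
Log2 intensity in the 4 libraries for expressed MHC genes, interferon-stimulated genes and clock genes, each panel ordered by the difference between controls, with the dotted line at the expression minimum of 5.49. The FVB/N symbols lie left of the C57BL/6 symbols for H2-Eb1, H2-T23, H2-Aa, Ifit3, Trim30a, Nr1d1 and Dbp in both pairs, and right of them for H2-DMb1 and Arntl.

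Interferon-stimulated genes, which cells switch on through STAT and IRF factors and which limit viruses, were more often lower than higher in FVB/N kidney, with 14 of 19 below 0 and 4 above between controls. Their median was -0.37 between controls and -0.54 between diabetics, beside 0.01 and -0.08 for all genes. Of 19 expressed members 6 were at least 1.5-fold lower and 0 higher between controls, beside 6.75% and 6.29% of all genes. Of the 6, 5 were that much lower between diabetics too, where 16.9% of all genes were. Among all genes 2-fold lower between controls, 61.1% were 2-fold lower between diabetics too. The like share at 1.5-fold was not counted, so whether interferon genes repeated more often than other lower genes was not tested. Without an expression minimum the median of the interferon list was -0.15. Oas1g, a sensor enzyme for double-stranded RNA, was at 5.004 in the FVB/N and 7.22 in the C57BL/6 control, and at 5.45 and 6.26 in the diabetics. Ifit3, which binds viral RNA with its partners, was at 7.11 against 8.46, then 6.60 against 8.42. The ubiquitin ligase family gene Trim30a was at 6.09 against 7.26, then 5.71 against 7.34.

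The T-cell chemokine Cxcl10 stood at 4.73 in the FVB/N and 5.95 in the C57BL/6 control, near background in both, and at 4.79 and 7.17 in the diabetics. Its mean passed the expression minimum through the C57BL/6 values, since both FVB/N values were below it. With the minimum set on the control libraries Cxcl10 was left out, and the median of the interferon list was -0.39. Oas1g too was below the minimum in both FVB/N libraries. Bst2, the tether of budding virus particles, was at -0.99 between controls, bright in both at 10.20 against 11.20. With all probes averaged, Ifit3 was at -0.72, and Oas1g fell under the minimum. T, NK and B cell markers had a median of -0.46 over 5 expressed genes between controls and -0.06 between diabetics, with Cd3d at 6.37 against 6.74 in the controls. Without an expression minimum the control median of that list was 0.0203. For macrophages and dendritic cells the medians were -0.10 and -0.57. The part of immune cell content in the interferon genes was not tested.

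The start windows of Oas1g, Ifit3, Cxcl10 and Bst2 are shown as examples of genes lower between controls, picked by their values. They run from 250 bases before to 50 after the RefSeq start in the C57BL/6J reference (GRCm38.p6), read 5′ to 3′ on the strand of the gene. Capitals mark matches to GAAA, any 2 bases and GAAA again, the core of the interferon-stimulated response element, on either strand; neighbouring matches may overlap.
Oas1g, chr5:120887564-120887863, minus strand: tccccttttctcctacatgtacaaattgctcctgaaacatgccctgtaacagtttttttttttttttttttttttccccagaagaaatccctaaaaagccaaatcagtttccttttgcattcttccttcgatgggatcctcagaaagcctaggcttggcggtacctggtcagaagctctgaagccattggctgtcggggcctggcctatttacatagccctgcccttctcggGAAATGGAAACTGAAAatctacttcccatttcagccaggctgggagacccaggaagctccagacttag
Ifit3, chr19:34583279-34583578, plus strand: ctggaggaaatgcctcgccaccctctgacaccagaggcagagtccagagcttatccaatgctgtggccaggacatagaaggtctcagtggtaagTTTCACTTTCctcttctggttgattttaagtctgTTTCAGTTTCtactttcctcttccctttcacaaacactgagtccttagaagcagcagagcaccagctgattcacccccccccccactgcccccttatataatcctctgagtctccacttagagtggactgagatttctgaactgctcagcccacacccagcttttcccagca
Cxcl10, chr5:92348840-92349139, minus strand: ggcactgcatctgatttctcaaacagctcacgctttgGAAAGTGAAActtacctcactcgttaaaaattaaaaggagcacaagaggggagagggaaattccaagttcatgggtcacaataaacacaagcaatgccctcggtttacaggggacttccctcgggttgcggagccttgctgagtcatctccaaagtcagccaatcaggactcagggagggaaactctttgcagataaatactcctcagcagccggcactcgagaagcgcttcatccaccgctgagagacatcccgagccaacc
Bst2, chr8:71537423-71537722, minus strand: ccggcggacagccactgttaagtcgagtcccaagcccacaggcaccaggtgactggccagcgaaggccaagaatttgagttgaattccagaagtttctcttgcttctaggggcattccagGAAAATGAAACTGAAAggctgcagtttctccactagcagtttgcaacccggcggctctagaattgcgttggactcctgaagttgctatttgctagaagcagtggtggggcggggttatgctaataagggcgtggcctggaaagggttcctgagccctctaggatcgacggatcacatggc
The letters occur in 3.44% of all 32851 windows. Of the 19 expressed interferon-stimulated genes 16 had a window and 10 held the letters, among them the 5 genes at least 1.5-fold lower that had a window and 5 of the 11 others. Trim30a, whose window is not shown, is among the 5 lower genes. The sequence of FVB/N at these places was not used here.

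Of the clock genes, 3 were at least 2-fold apart. Dbp, an output activator of the clock, stood at 12.17 in the FVB/N and 13.32 in the C57BL/6 control, and at 11.33 and 13.29 in the diabetic libraries. Nr1d1, which encodes the repressor REV-ERB alpha, was at 6.52 against 7.80, then 6.26 against 7.22. Arntl, the BMAL1 activator that REV-ERB represses, lay the other way, at 6.44 against 5.25, then 6.56 against 4.84. All 3 had both FVB/N libraries on the same side of both C57BL/6 libraries.

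No other clock gene of the 13 expressed was beyond 1.5-fold between controls, and the median was -0.0028. The second probe of Nr1d1 read -0.16 between controls and -0.998 between diabetics, and with all its probes averaged Nr1d1 came to -0.40. The series text says that all samples were taken at once, without the hour of the day. The start window of Arntl is shown with AGGTCA, the half-site bound by REV-ERB and ROR receptors, in capitals.
Arntl, chr7:113207261-113207560, plus strand: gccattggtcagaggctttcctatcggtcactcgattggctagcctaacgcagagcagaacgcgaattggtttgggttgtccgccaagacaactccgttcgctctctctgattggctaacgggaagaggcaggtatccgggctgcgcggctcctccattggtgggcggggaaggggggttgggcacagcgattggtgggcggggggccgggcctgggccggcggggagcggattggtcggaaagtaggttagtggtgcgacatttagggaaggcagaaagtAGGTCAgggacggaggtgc
These letters, on either strand, are in 16.3% of all windows and in those of 4 of the 10 expressed clock genes with a window. No window of Dbp or Nr1d1 held them.

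The medians of the tubule segment lists lay within 0.25 log2 of 0, while some of their genes stood further apart. Of 14 expressed early proximal tubule markers, 3 were higher by 1.5-fold or more and 1 was lower. Of all genes, 6.29% were that much higher and 6.75% lower. In the early proximal tubule list the lactate transporter Slc5a12 was 1.09 higher in the FVB/N control and 1.37 higher in the FVB/N diabetic library. Pvalb, the calcium buffer of the distal convoluted tubule, was at 12.95 against 11.13, then 12.24 against 11.43. The sodium chloride transporter Slc12a3 of the same segment was at -0.85 between controls and -0.19 between diabetics. Aqp4, a basolateral water channel of principal cells, was at 10.32 against 9.10, then 10.48 against 8.26. The 12 principal cell markers had a median of -0.13; 1 was higher by 1.5-fold or more and 3 were lower.

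Loop of Henle markers centred on 0.11, 0 of 9 beyond 1.5-fold, and S3 proximal tubule markers 0.03 with 1 of 8 higher. Intercalated cell markers stood at -0.23, podocyte markers at -0.31, endothelial markers at -0.08 and mesangial and smooth muscle markers at -0.13. The podocyte median was 0.17 between diabetics, and 0.0541 between controls without an expression minimum. Slc6a12, the betaine transporter of the medulla, was 1.85 higher in the FVB/N control, at 7.85 against 6.00, and 3.32 higher between diabetics. Among the 34 expressed genes of water, sodium and osmolyte handling 3 were higher by 1.5-fold or more and 5 were lower, and the 3 higher ones were also higher between diabetics.

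Transport and drug-metabolizing genes differed one at a time. Slc22a12, the urate transporter URAT1, was at 8.03 in the FVB/N and 9.84 in the C57BL/6 control and at 8.05 and 9.36 in the diabetics. With all probes averaged its difference was -1.13. Inmt, an N-methyltransferase of tryptamine, was very bright in both strains and lower in FVB/N, at 11.27 against 14.44, then 10.71 against 14.18. Gsta4, the glutathione transferase for lipid aldehydes, was at -1.33 between controls and -0.57 between diabetics. Over 17 expressed glutathione transferases the median was -0.04, with 3 at least 1.5-fold lower and 0 higher.

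Cyp24a1, which inactivates vitamin D, stood at 8.80 in the FVB/N and 10.49 in the C57BL/6 control, and at 8.67 and 10.04 in the diabetics. Cyp27b1, which makes the active hormone, was at 0.90 between controls but -0.41 between diabetics, and its C57BL/6 control value of 5.01 was below the minimum. Cyp2d22, a drug-metabolizing P450, was 1.69 and 1.52 higher in FVB/N. Of 29 expressed P450 genes 3 were higher by 1.5-fold or more and 6 lower, with 1 in each direction doing so in both pairs.

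Among antioxidant genes, Prdx2, a peroxiredoxin abundant in red cells, stood at 5.47 in the FVB/N and 8.99 in the C57BL/6 control, and at 5.16 and 9.46 in the diabetics. Its second probe was lower too, at -1.99 and -2.03. Gpx6, a glutathione peroxidase, was at -1.95 and -1.29. Of 25 NRF2 targets and antioxidants 4 were lower by 1.5-fold or more and 0 higher, and their median was -0.12. Of the red blood cell transcripts, Hba-a1, alpha-globin, was 0.76 higher in the FVB/N control and 0.03 higher between diabetics, and the haem synthesis gene Alas2 was at 1.04 and -0.17.

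Beta-globin probes lay in opposite directions. Hbb-b2 was at 12.82 in the FVB/N and 8.69 in the C57BL/6 control, and at 11.36 and 9.81 in the diabetics, while Hbb-bt was at 8.97 against 10.91, then 7.50 against 11.64. The beta-globin genes are near-identical copies that differ between strains in number and sequence, and which of them each probe reads was not tested.

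In the large protein machines most subunits were close and a few stood apart. The ribosomal protein gene Rpl29 was at 5.40 in the FVB/N and 8.18 in the C57BL/6 control, a difference of -2.78, while the next lowest of 38 expressed ribosomal genes was Rps9 at -0.41 and the highest Rpl36 at 0.64. In the proteasome, the regulatory particle subunit Psmd8 was at -1.74, with a median of -0.0088 over 31 genes. In the respiratory chain, Cox6a2, the heart and muscle form of a cytochrome oxidase subunit, was at -2.89 and Ndufb10 of complex I at -2.02, with a median of -0.0090 over 54 genes. The 4 genes read much the same between diabetics, at -2.998, -1.89, -2.87 and -1.92. Among matrix genes, Col1a2, a chain of type I collagen, was at -3.10 and the collagen-binding Sparc at -2.72, beside a median of -0.08 over 33 genes. Rpl29 and Col1a2 were below the expression minimum in both FVB/N libraries, Col1a2 at 5.32 in the control and 4.97 in the diabetic. Cox6a2 was below it in the FVB/N control, at 5.28. The size of these 3 differences is therefore uncertain.

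The medians of metabolic pathways lay close to 0 between controls. For fatty acid oxidation and PPAR-alpha the median over 29 genes was -0.05; 0 were higher by 1.5-fold or more and 2 were lower. Genes of glucose use and production had a median of 0.01, and the glucose-releasing enzyme G6pc was 0.69 and 0.60 higher in the controls and the diabetics. Amino acid metabolism had a median of 0.15 over 41 genes, with 7 at least 1.5-fold higher and 5 lower. These are larger shares than the 6.29% higher and 6.75% lower of all genes. In amino acid metabolism, single genes thus differed more often than the median shows. There Bhmt, which remethylates homocysteine, was 1.05 and 0.85 higher, and Amdhd1 of histidine breakdown was at -1.18 and -2.11. The zinc exporter Slc30a2 was 1.11 and 1.19 higher.

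The sources give mixed sex, and sex-dependent genes differed one by one. Genes higher in male kidneys had a median of -0.18 over 13 genes, 3 of them lower by 1.5-fold or more and 0 higher, and genes higher in female kidneys had a median of 0.0007, 1 of them higher and 3 lower. Between diabetics these medians were -0.39 and 0.35, and with the minimum set on the control libraries the male one was -0.36 between controls. Kap, the androgen-regulated kidney protein, was at 15.03 and 15.04 in the control libraries. Nudt19, a coenzyme A hydrolase of the male list, was at -1.69 and -1.83, and its second probe at -0.82 between controls. Nnt, the mitochondrial transhydrogenase deleted in the J substrain of C57BL/6, and Hc, complement C5, inactive in FVB/N, were below the minimum in both controls, at 5.05 and 5.17 and at 5.05 and 5.26, and did not serve as strain checks here.

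For some genes the diabetic pair did not show the difference of the control pair. The FVB/N control library was alone high for Itih1, a heavy chain of the plasma inter-alpha inhibitor, at 9.42 against 7.09 in the C57BL/6 control, with 7.32 and 7.31 in the diabetics. Tprg was at 8.88 against 6.44, then 6.30 and 5.90. Pnpla3, a lipid droplet hydrolase, was at 8.71 against 5.99, then 6.14 and 5.37. For these 3 genes the value that stood apart came from 1 library. Other large gaps between the pairs were those of Bphl, at 1.23 between controls and -0.90 between diabetics, Serpina5 at 1.13 and -0.76, and Acsf2 at -1.16 and 0.75.

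Some genes 2-fold lower in FVB/N had a neighbour on the chromosome that was lower too. Ordered by position in the reference annotation, 9194 expressed genes were placed on chromosomes 1 to 19 and X. Of the 239 lower genes 33 (13.8%) had an adjacent expressed gene that was also 2-fold lower, against 5.03% of all genes with such a neighbour. Of 143 placed higher genes 8 (5.59%) had a higher neighbour, against 3.06%. Runs of this kind included H2-Aa beside H2-Eb1, H2-T23 beside H2-T22, Serpina1a beside Serpina1b and Serpina1d, Aph1b beside Aph1c, and Apoa2 beside Fcer1g. Several of these are gene copies that a probe may not separate.

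The share of genes at least 2-fold apart in either direction was 4.16% over all genes. It ran from 1.68% on chromosome X to 6.68% on chromosome 17, which holds the MHC, where 8 genes were higher and 21 lower of 434. Chromosome 12, with the serpin cluster, had 6.40%. By brightness, in bands of equal size from dim to bright, 32, 69, 25 and 18 genes were 2-fold higher and 50, 96, 57 and 36 were 2-fold lower.

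The 2-fold line has no special standing in these values. Just inside it on the higher side were Hdhd3 at 1.0004, Nat8f5 at 1.006 and Cd14 at 1.007, and just outside Homer1 at 0.9997, Rtl8c at 0.995 and Myl4 at 0.994. On the lower side Nudt11 at -1.006, Zfp330 at -1.006 and Olfr577 at -1.008 were inside, and Dusp26 at -0.9995, Hap1 at -0.997 and Bst2 at -0.994 outside.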

How the data were processed

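Kidney RNA of 4 groups of mice was hybridised to Illumina mouse bead arrays after Trizol extraction, per the labels' protocols. The deposited values are log2 intensities, 1 column per group, from 4.45 to 15.84 with nearly identical distributions; how the authors corrected background, normalized and filtered is not stated in the labels. No further normalization was applied. Of 24613 probes, 20984 had exactly 1 gene symbol in the platform annotation, and 3628 without a gene were set apart. Symbols were looked up by gene identifier in the RefSeq table (GRCm38.p6) for 20968 probes, of which 0 differed.

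Differences are FVB/N minus C57BL/6 on the log2 scale, computed with pandas 2.3.3 and statsmodels 0.14.6 in Python 3.11.15 and checked on simulated data. The simulation planted differences in bright genes only, with equal noise for every probe. It checked the computation and does not give the error of the 2-fold counts. The small number of arrays limits the precision. The members and the 56 gene lists were chosen with earlier results of these data known. Named genes are the 15 furthest apart in each direction, the 10 in each direction by the smaller of both pairs, the 8 in each direction whose difference shrank or turned most in the diabetic pair, up to 5 members per list, the 3 nearest the 2-fold line on each side, and strain and sex checks; unnamed gene models were left out. Kidney markers serve as a check, and Apoa1, Fga, Cd74, H2-K1, B2m, Spint1, Aph1b and Aph1c were added after their values were seen. Promoter sequences come from RefSeq windows. Alternatives were another normalization, centring, filter, probe choice and threshold.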

Additional observations from a re-analysis of the deposited data

Results flagged for a closer look

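For 9 genes, 8 with an established name, the strain difference was at least 2-fold between controls and at least 2-fold the other way between diabetics. They were 2 of the 144 higher and 7 of the 239 lower genes. Of all genes, 4.92% were 2-fold lower and 5.58% were 2-fold higher between diabetics, so such turns were not frequent. With 1 library per group the gap between the pairs was not tested. Hmox1, the haem-degrading oxygenase, stood at -1.11 between controls and 2.13 between diabetics; its FVB/N diabetic library was the highest of the 4, at 11.14, and the C57BL/6 diabetic the lowest, at 9.01. Psmc1, an ATPase of the proteasome, stood at -1.19 and 2.53, with the C57BL/6 diabetic library lowest at 5.64. Cyp26b1, which degrades retinoic acid, was at -1.11 and 1.02, and the organic anion pump Abcc3 at -1.04 and 1.04. The protease inhibitor Spint2 was at -1.02 and 1.54, but its second probe read 0.47 and 0.08. The transcription factor Pou6f1 was at -1.06 and 1.22, and Samd4b at -1.17 and 1.24. Of the 8, Pf4, the platelet chemokine, was the 1 gene higher in the FVB/N control, at 1.16, and lower in the FVB/N diabetic, at -1.19.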

How the results depend on the processing

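No paired analysis was possible because each group has 1 library and the labels give no replicate numbers; no library could be left out for the same reason. The counts of 144 higher and 239 lower genes stayed within 1.5 times under quantile normalization, median centring, loess centring on intensity, no expression minimum, a minimum on the control libraries, averaging all probes and choosing probes on the control libraries. With the minimum at percentile 75 of all probes, which tests fewer genes, they were 50 and 114, and at 1.5-fold in place of 2-fold 579 and 621. The correlation of the pairs across genes was 0.38 without a minimum and 0.55 at percentile 75, against 0.43. Of 105 named genes at least 2-fold apart, loess centring brought 3 under 2-fold (Hdhd3, Nat8f5 and Cd14) and averaging all probes brought 12 under it: Eif3j1, Spint2, H2-T22, H2-DMb1, Ifit3, Slco4a1, Cth, Cbs, Nr1d1, Ltbp4, Spag5 and Slc9a8; Oas1g fell below the minimum there. With all probes averaged, Greb1 stood at 2.26, Cebpd at 1.23, Mcm6 at -1.62, Rbm14 at -2.10 and Slc5a2 at -1.71. The minimum at percentile 75 left 66 of the 105. No named gene or list median beyond 1.5-fold reversed its sign under these alternatives. Values near the bottom of the range limit how well differences of dim genes are measured.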

Other observations

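Probes without an annotated gene showed strain differences of like frequency. Of 1477 such probes at or above the expression minimum, 36 were higher and 23 lower in the FVB/N control by 2-fold or more, 3.99% in all, against 4.16% of named genes. More of these probes were thus higher than lower, whereas 1.57% of named genes were higher and 2.60% lower. Of the unnamed probes, 19 of the 36 and 14 of the 23 were also at least 2-fold apart the same way between the diabetic libraries. The furthest apart stood at 3.32 and -4.47 between controls, and at 2.92 and -4.61 between diabetics. What transcripts these probes read was not tested.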
